A study of Mus musculus with 12 samples.

Results

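The direct comparison of 2 long-acting insulins in mouse liver is described here, insulin glargine against Insulin-Apo, across all genes on the array. Its members are 6 of the 12 liver arrays of the study, the 3 whose labels name insulin glargine and the 3 whose labels name the fusion of insulin and apolipoprotein A-I. Each group received 55 nmol/kg subcutaneously and its livers were taken 6 h later, so that dose and time were matched. All mice were C57BL/6. The labels give an age of 6 weeks, whereas the methods name female C57BL/6J mice bought at 7 weeks. Insulin glargine is a commercial insulin analogue with substituted residues in its chains, which precipitates under the skin and is released slowly. Insulin-Apo is a single-chain insulin joined through a short linker to human apolipoprotein A-I (at its N-terminus), the main protein of high-density lipoprotein, and was produced in bacteria with a His-tag. Albulin is an insulin fused to albumin and, like Insulin-Apo, was produced in bacteria. The saline and Albulin groups also held 3 arrays each, and their levels are given beside the 2 groups for orientation with no test.

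Insulin acts on hepatocytes through its receptor, the insulin receptor substrates and a phosphoinositide 3-kinase made of a regulatory and a catalytic subunit. The kinase Akt then phosphorylates FoxO transcription factors, which leave the nucleus, and activates the transcription factor SREBP-1c, which drives fatty acid synthesis. Insulin also induces glycolytic genes, lowers transcription of gluconeogenic genes and of Cyp7a1, and can shift the liver clock. The liver is at the same time the source of the acute phase proteins, which hepatocytes secrete in response to interleukin-6 and interleukin-1.

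Expression was read with Affymetrix Mouse Gene 1.0 ST arrays as log2 values of 28213 probe sets, each a group of probes for 1 transcript cluster. A value over 5 in at least 2 arrays of insulin glargine or Insulin-Apo was reached by 25923 probe sets. Over the 4 groups the same filter kept 26027 probe sets, which were tested in 1 limma fit of all 12 arrays. Differences are given as log2 values of insulin glargine minus Insulin-Apo, and "higher" and "lower" always refer to insulin glargine relative to Insulin-Apo. A probe set was called when its B statistic, the log odds that it differs, was over 0, and p values adjusted by the Benjamini-Hochberg method over all 26027 are given beside the calls. A gene of a list was read by its brightest probe set with a single symbol, and a gene among the largest differences by its probe set with the largest one. Detection over background was not assessed. Array medians lay between 7.70 and 7.77. The insulin glargine arrays differed more among themselves (median SD of a probe set 0.127) than those of the other groups (0.0839 to 0.0898), and replicate 3 of insulin glargine had the lowest mean correlation with its own group (0.990, against 0.993 for the other two). The hepatocyte markers lay at similar levels in all 4 groups. Their per-array means were 14.3727 to 14.4225 after insulin glargine and 14.3035 to 14.3695 after Insulin-Apo, close but not overlapping. Alb and Apoa1 differed by 0.04 and -0.00. The labels do not say that the 3 arrays of a group came from separate mice, so p values measure the spread between these arrays. The array study in the methods names saline, Albulin and Insulin-Apo and not insulin glargine, and no source used here gives the day of hybridization or the hour of injection of each group. Such differences cannot be told apart from the compounds. Nor can the source, since the methods name a commercial insulin glargine and fusion proteins made in E. coli by another supplier. In whole liver, fewer cells of a type and less RNA per cell cannot be told apart either.

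The liver transcriptomes differed between the 2 groups of arrays. Of the 26027 probe sets, 1259 were called, which is 4.84%. After insulin glargine 510 were higher (1.96%) and 749 lower (2.88%). The groups of 3 arrays did not overlap in 25.4% of all tested probe sets, and in all 1259 of the called ones. The called probe sets carried 1079 gene symbols, and their median difference was 0.63 among the higher and -0.67 among the lower ones, while the median over all tested probe sets was 0.02. More than 2-fold differences were found in 252 of them, 97 higher and 155 lower, and more than 4-fold differences in 21. The largest adjusted p among the calls was 0.00881. The calls fell to 815 without Insulin-Apo replicate 2 (320 higher and 495 lower), and to 645 when the spread was estimated from the 6 arrays alone. Of 89 called genes named below, 29 lost their call in that fit, with the same differences, namely Ciart, Sult1e1, Upp2, Mbtps1, Insig2, Pklr, Got1, Tsc22d3, Akt2, Igfbp3, Apoa5, Fga, Fgg, Orm1, Itih4, Tnf, Vcam1, Ccl3, Sdf2l1, Dnajb9, Ppp1r15a, Per2, Rrp12, Prodh, Cd68, Kdr, S100a8, S100a9 and Krt19. Centring the arrays ended the calls of Dnajb9, S100a8 and Cxcr2, repeated quantile normalization those of Akt2, S100a9 and Cxcr2, and array weights those of Pklr, Ppp1r15a, Per2, Prodh and Cxcr2.

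**Figure D1:**
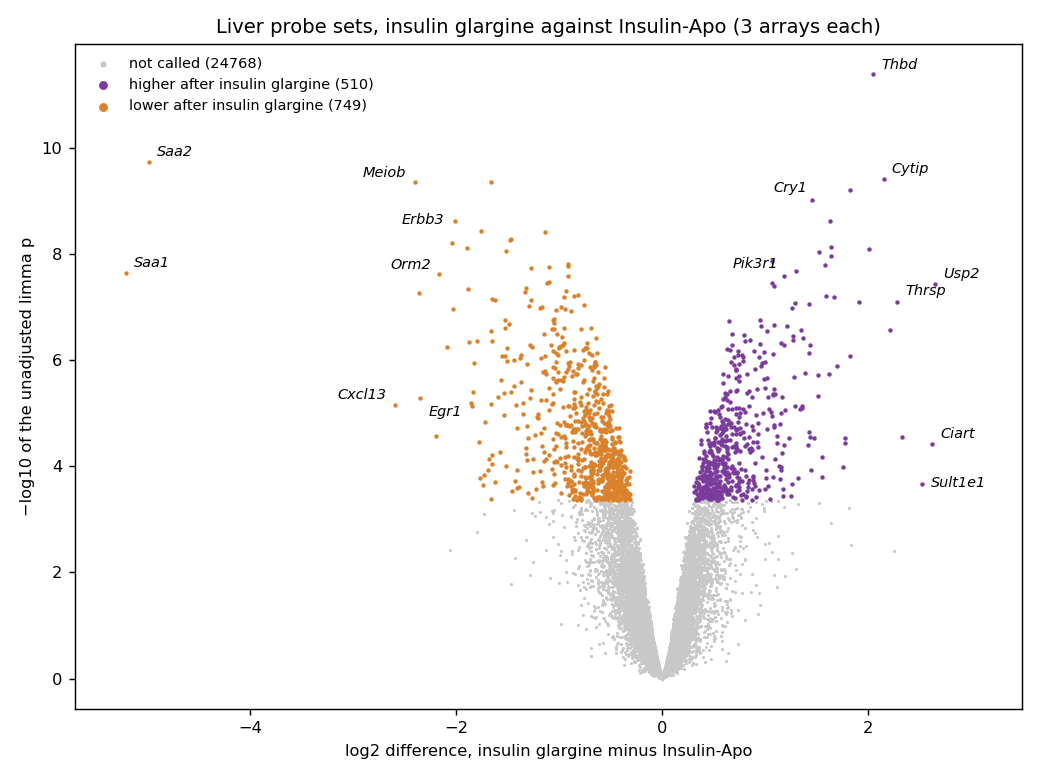
Each point is a probe set, with the log2 difference (insulin glargine minus Insulin-Apo, 3 arrays each) on the horizontal axis and −log10 of the unadjusted limma p on the vertical axis. Of the called probe sets, 510 are higher after insulin glargine (purple) and 749 lower (orange), and Saa1 and Saa2 lie farthest from 0, at -5.21 and -4.99.

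The 15 genes with the largest higher values after insulin glargine were Usp2, Ciart, Sult1e1, Thrsp, Etnppl, Cytip, Thbd, Cd14, Arhgef37, Pik3c2g, Ddit4, Upp2, Tgfb3, Tns1 and Atp1b1, with differences from 2.65 down to 1.63. Usp2, a rhythmically expressed ubiquitin protease, was at 11.35, 11.61 and 10.97 after insulin glargine and at 8.38, 8.32 and 9.27 after Insulin-Apo (log2 difference 2.65 ± 0.22 SE, adjusted p = 2.65e-05). Thbd, thrombomodulin, the thrombin receptor of endothelium, was at 10.13, 10.01 and 9.86 and at 7.91, 7.91 and 8.03 (log2 difference 2.05 ± 0.080 SE, adjusted p = 1.05e-07). The spread within each group was small for Thbd, and no called gene had a lower adjusted p. Cytip, which binds the cytohesin exchange factors of leukocytes, was at 9.05, 9.25 and 8.81 and at 6.92, 6.92 and 6.81 (log2 difference 2.15 ± 0.12 SE, adjusted p = 2.27e-06). Cd14, the coreceptor for lipopolysaccharide, was at 10.69, 10.96 and 10.55 and at 8.71, 9.03 and 8.43 (log2 difference 2.01 ± 0.15 SE, adjusted p = 1.2e-05). All insulin glargine arrays lay above all arrays of the other 3 groups for Thbd, Cytip and Cd14.

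Among the remaining higher genes, Sult1e1, the oestrogen sulfotransferase, had widely spread values of 9.38, 11.25 and 9.66 after insulin glargine against 7.46, 7.06 and 8.19 after Insulin-Apo (log2 difference 2.53 ± 0.49 SE, adjusted p = 0.00578). Etnppl, which breaks down phosphoethanolamine, was at 13.31, 13.29 and 12.42 and at 10.90, 10.33 and 11.12 (log2 difference 2.22 ± 0.22 SE, adjusted p = 8.7e-05). Both genes were intermediate after saline, at 8.04, 9.45 and 9.77 and at 11.89, 12.06 and 11.89. Pik3c2g, a class II phosphoinositide 3-kinase of hepatocytes, was 3.55-fold higher (log2 difference 1.83 ± 0.20 SE, adjusted p = 0.000155). Atp1b1, a subunit of the sodium pump, was 3.1-fold higher (log2 difference 1.63 ± 0.11 SE, adjusted p = 6.94e-06), the growth factor gene Tgfb3 3.18-fold and Tns1, which links integrins to actin, 3.11-fold. Tns1 had 6 tested probe sets, of which 5 were called, with differences from 0.25 to 1.64. The pyrimidine salvage gene Upp2 was 3.38-fold higher (log2 difference 1.76 ± 0.31 SE, adjusted p = 0.00352) with saline values of 12.63, 13.02 and 12.81, close to those after insulin glargine (12.78, 12.87 and 12.40). Single arrays, left out one at a time, decided 2 of these calls, since the call of Sult1e1 was lost without insulin glargine replicate 2, Insulin-Apo replicates 1 and 2, and Albulin replicate 2, with differences of 1.95 to 2.53, and the call of Upp2 was lost without insulin glargine replicates 1 and 2, with differences of 1.66 to 1.71.

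The 15 genes with the largest lower values were Saa1, Saa2, Cxcl13, Meiob, BC023105, Efna1, Depp1, Orm2, Pilra, Erbb3, Dnajc12, P2ry13, Acpp, Egr1 and Clec12a, from -5.21 to -1.84. Erbb3, a neuregulin receptor of hepatocytes, was at 8.80, 9.53 and 9.01 after insulin glargine and at 11.11, 11.15 and 11.19 after Insulin-Apo (log2 difference -2.04 ± 0.15 SE, adjusted p = 1.13e-05), and at 11.59, 11.49 and 11.30 after saline. Meiob, known for its role in meiotic recombination, was at 6.24, 5.99 and 6.14 and at 8.60, 8.81 and 8.18 (log2 difference -2.40 ± 0.14 SE, adjusted p = 2.27e-06). The insulin glargine values of Meiob lay below the array medians and may be at background. Efna1, a membrane-bound ligand of Eph receptors, was at 8.61, 9.21 and 8.42 and at 10.78, 11.77 and 10.75 (log2 difference -2.35 ± 0.31 SE, adjusted p = 0.000519). For Efna1 the saline arrays (8.94, 9.60 and 9.04) lay among or near the insulin glargine arrays, while for Erbb3 and Meiob the insulin glargine arrays lay below every array of the other 3 groups. Dnajc12, a cochaperone of the aromatic amino acid hydroxylases, was 4.08-fold lower and Acpp, an acid phosphatase, 3.7-fold lower. Depp1, a FoxO target, was at 6.93, 8.33 and 7.18 and at 9.14, 10.05 and 9.82 (log2 difference -2.19 ± 0.34 SE, adjusted p = 0.00146). Pilra and Clec12a, inhibitory receptors of myeloid cells, were lower by 4.26-fold and 3.58-fold, and P2ry13, a receptor for ADP, by 4.04-fold.

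Of the 15 higher genes, 14 had an insulin glargine mean outside the range of the 3 other group means, as had 13 of the 15 lower genes. These genes were picked for large differences between insulin glargine and Insulin-Apo, and the insulin glargine arrays had the largest spread. The same share over all tested probe sets was not counted, so these counts have no baseline. Over all 1259 called probe sets, the saline mean was nearer to the Insulin-Apo mean in 961 and nearer to the insulin glargine mean in 298. The Albulin mean was nearer to Insulin-Apo in 1128 and nearer to insulin glargine in 131. Such counts were not made for the probe sets that were not called.

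Gene lists of pathways and cell types are described by how many tested members were called, beside the 1.96% and 2.88% of all tested probe sets that were called higher and lower, and by their median beside the 0.02 of all probe sets. The acute phase list had the most called members, 12 of 25, all lower, followed by the clock list with 7 of 17 in both directions and the insulin signalling list with 5 of 15.

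**Figure D2:**
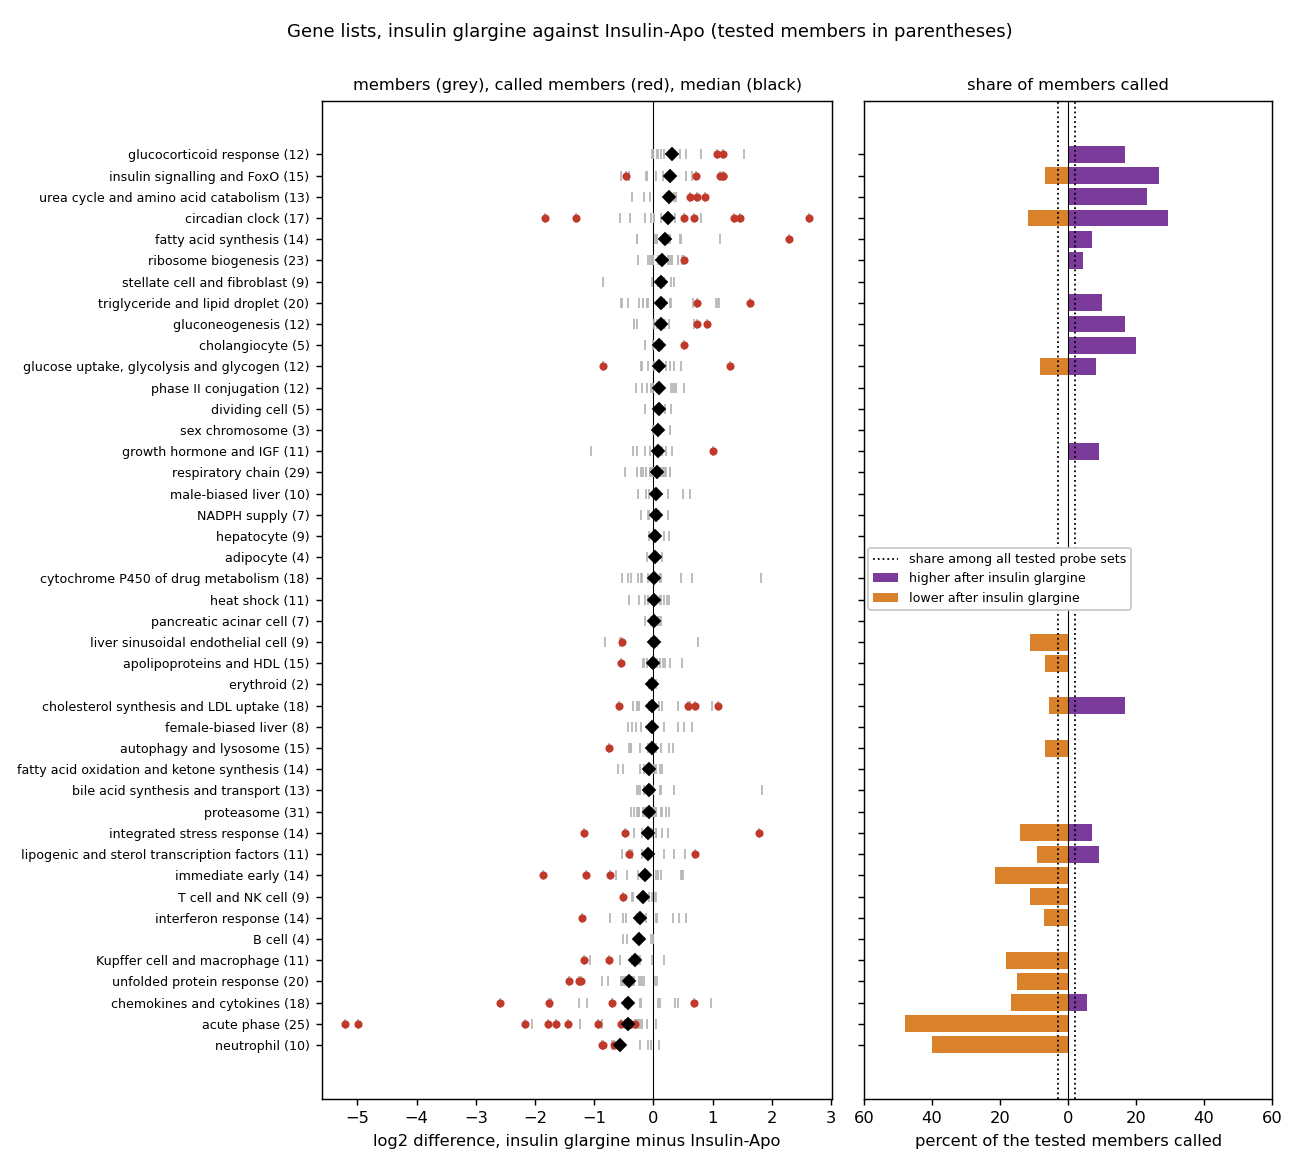
Left, log2 difference (insulin glargine minus Insulin-Apo) of every tested member of each list, with called members in red and the list median as a black diamond. Right, percent of the tested members called higher (purple) and lower (orange), with dotted lines at the 1.96% and 2.88% of all tested probe sets, and the neutrophil list (median -0.57) and the acute phase list (median -0.44) at the bottom.

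In the insulin signalling and FoxO list, 4 of 15 tested members were higher and 1 was lower (median 0.28). Pik3r1, the regulatory subunit of phosphoinositide 3-kinase, was at 12.02, 12.16 and 11.92 after insulin glargine and at 10.86, 10.75 and 10.95 after Insulin-Apo (log2 difference 1.18 ± 0.096 SE, adjusted p = 2.19e-05). Grb14, an adaptor that inhibits the insulin receptor, was at 11.34, 11.24 and 11.39 and at 10.67, 10.66 and 10.47 (log2 difference 0.72 ± 0.087 SE, adjusted p = 0.000276). Foxo1, the FoxO factor that drives gluconeogenic genes, was at 11.42, 11.28 and 11.30 and at 10.67, 9.78 and 10.14 (log2 difference 1.13 ± 0.20 SE, adjusted p = 0.00341). In all 3 genes the insulin glargine arrays lay above every array of the other 3 groups. Akt2, the main hepatic Akt kinase, was lower, at 11.56, 11.73 and 11.74 and at 12.10, 12.25 and 12.08 (log2 difference -0.47 ± 0.093 SE, adjusted p = 0.00617). Tsc22d3, a FoxO and glucocorticoid target, was higher (log2 difference 1.18 ± 0.19 SE, adjusted p = 0.00194). The adaptor Grb10 fell just short of a call (difference 0.66, adjusted p = 0.00892), as did Ptpn1, the phosphatase of the insulin receptor (-0.41, adjusted p = 0.00977), and the insulin receptor substrates were not called, with 0.56 for Irs1 (adjusted p = 0.0228) and -0.55 for Irs2 (adjusted p = 0.124), or -0.34 without Insulin-Apo replicate 2. When arrays were left out in turn, the call of Akt2 was lost without insulin glargine replicates 1 and 2, Insulin-Apo replicates 1, 2 and 3, and Albulin replicates 1, 2 and 3, with differences of -0.50 to -0.41, and the call of Foxo1 was lost without insulin glargine replicate 1 or without Insulin-Apo replicate 3, with differences of 1.09 to 1.10. The lower count of this list was 2 without saline replicate 3.

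Among the 14 fatty acid synthesis genes, 12 had positive differences and 2 negative ones (median 0.20). Their mean was 11.40 to 11.48 in the insulin glargine arrays and 11.05 to 11.17 in the Insulin-Apo arrays. It was 11.15 to 11.30 in the saline arrays and 11.41 to 11.74 in the Albulin arrays. A single member was called higher and none lower. It was Thrsp, a regulator of lipogenesis that responds to insulin and thyroid hormone, at 10.85, 10.26 and 10.85 after insulin glargine, 8.45, 8.22 and 8.44 after Insulin-Apo, 9.03, 9.28 and 8.90 after saline and 10.31, 9.47 and 10.14 after Albulin (log2 difference 2.28 ± 0.21 SE, adjusted p = 4.08e-05). The Insulin-Apo arrays were the lowest of the 4 groups. Fasn, fatty acid synthase, was at 10.66, 10.88 and 11.57 after insulin glargine and at 9.92, 10.12 and 9.69 after Insulin-Apo (difference 1.13 ± 0.24 SE, 95% interval 0.61 to 1.65, adjusted p = 0.00921), and its B of -0.07 was just under the threshold. The arrays of the 2 groups did not overlap for Fasn, and a call was gained in 7 of 26 alternatives of the processing. Among these were the fits without insulin glargine replicate 1 or Albulin replicate 2, with differences of 1.32 and 1.13. Acly, ATP citrate lyase, was at 10.83, 10.56 and 10.27 and at 10.42, 9.96 and 9.89 and was not called (difference 0.46, 95% interval 0.08 to 0.84, adjusted p = 0.124). Acaca, acetyl-CoA carboxylase, differed by 0.06, with a 95% interval of -0.23 to 0.35. The sign of this difference turned without insulin glargine replicate 2 or 3. A second, dimmer probe set of Acaca was not called either, at 0.24, and the mean of both gave 0.15. These intervals still allow differences of both signs for Acaca, and of up to 0.84 for Acly.

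Of the 11 lipogenic and sterol transcription factors and their regulators, 1 was higher and 1 lower (median -0.09). Insig2, which retains SREBP in the endoplasmic reticulum, was at 14.05, 14.10 and 13.92 and at 13.64, 13.07 and 13.26 (log2 difference 0.70 ± 0.13 SE, adjusted p = 0.00379). Mbtps1, the protease that first cleaves SREBP, was lower (log2 difference -0.41 ± 0.067 SE, adjusted p = 0.00229). Srebf1, which encodes SREBP-1c, was at 9.57, 9.11 and 9.93 after insulin glargine and at 8.94, 9.22 and 8.87 after Insulin-Apo and was not called (difference 0.53, adjusted p = 0.0648). Nr1h3, the oxysterol receptor LXR alpha, was not called either (difference -0.39, adjusted p = 0.0223). In the triglyceride and lipid droplet list 2 of 20 members were higher and none lower (median 0.13). Plin5, a lipid droplet coat protein, was at 11.83, 11.45 and 12.19 and at 10.29, 10.28 and 10.03 (log2 difference 1.63 ± 0.19 SE, adjusted p = 0.000249), and Gpam, which adds the first acyl chain to glycerol phosphate, at 11.64, 11.68 and 12.08 and at 11.09, 11.09 and 11.03 (log2 difference 0.73 ± 0.12 SE, adjusted p = 0.00219). In both the insulin glargine arrays were the highest of the 12. Plin4 (1.06) and Cidec (1.09), further droplet proteins, were not called (adjusted p = 0.0416 and 0.0798). Without insulin glargine replicate 3 these differences were 0.59 and 0.72, and that of Srebf1 was 0.33, while without Insulin-Apo replicate 3 that of Cidec was 0.65. With each array left out once, the call of Insig2 was lost without insulin glargine replicates 1 and 2 or without Insulin-Apo replicates 2 and 3, with differences of 0.58 to 0.69.

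Cholesterol synthesis genes were split. Of 18 members 3 were higher and 1 lower (median -0.02). Lss, which closes the sterol ring, was at 10.14, 9.92 and 9.80 after insulin glargine and at 8.79, 9.04 and 8.76 after Insulin-Apo (log2 difference 1.09 ± 0.14 SE, adjusted p = 0.000452). Ebp, a sterol isomerase, was at 12.31, 12.31 and 12.49 and at 11.74, 11.85 and 11.78 (log2 difference 0.58 ± 0.079 SE, adjusted p = 0.000648), and Dhcr7, the last reductase of the pathway, at 10.06, 10.03 and 10.28 and at 9.45, 9.36 and 9.45 (log2 difference 0.70 ± 0.12 SE, adjusted p = 0.00233). Fdft1, squalene synthase, which commits the pathway to sterols, was lower at 11.30, 11.16 and 11.18 and at 11.60, 11.84 and 11.92 (log2 difference -0.57 ± 0.11 SE, adjusted p = 0.00454). A second, dimmer probe set of Fdft1 was not called, at -0.85, and the mean of both gave -0.71. For Lss, Ebp and Dhcr7 all insulin glargine arrays lay above all other arrays, and for Fdft1 below them. With single arrays left out, the call of Fdft1 was lost without insulin glargine replicates 2 and 3 or without Insulin-Apo replicates 2 and 3, with differences of -0.56 to -0.51.

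**Figure D3:**
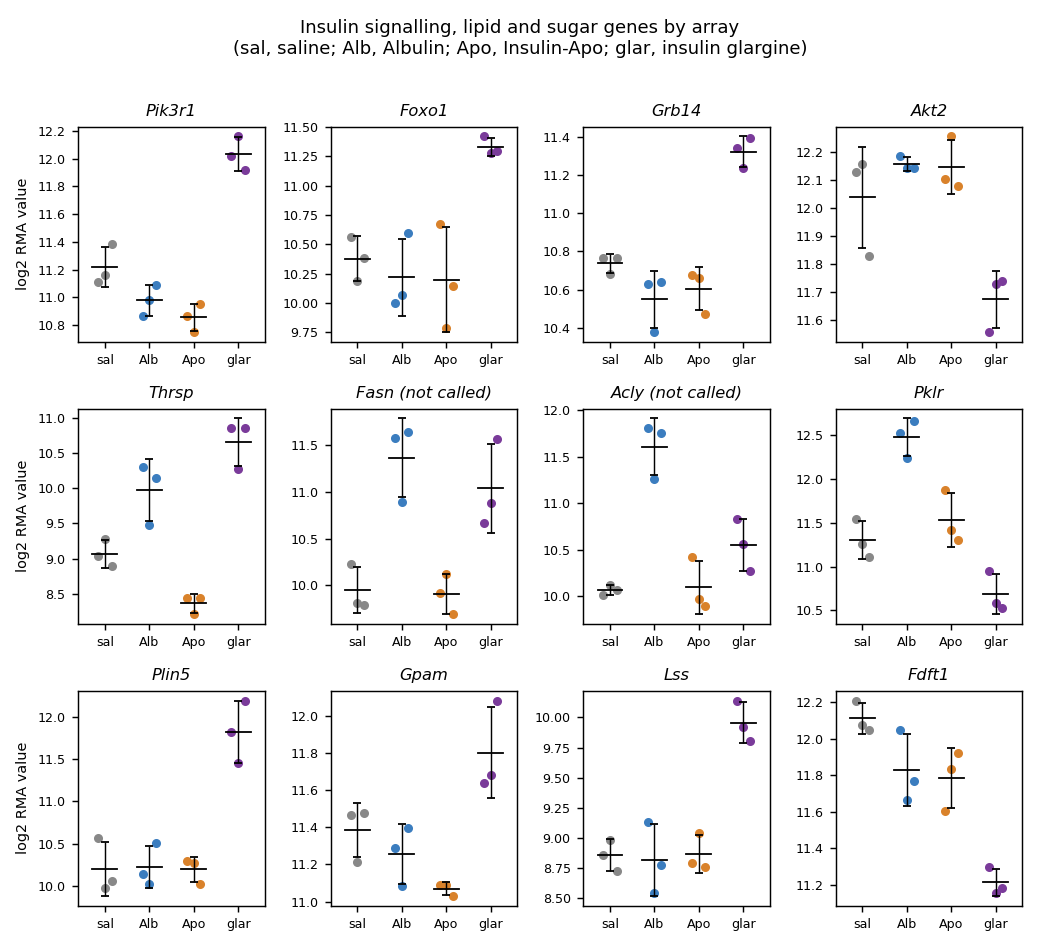
Log2 RMA values of 12 genes of insulin signalling, lipid and sugar metabolism in each array of the 4 groups (points), with the group mean and SD (black, n = 3). The insulin glargine arrays are the highest of all for Pik3r1, Foxo1, Grb14, Plin5, Gpam and Lss and the lowest for Akt2 and Fdft1, and Fasn and Acly were not called.

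Sugar metabolism genes included calls in both directions. In the list of glucose uptake, glycolysis and glycogen 1 of 12 was higher and 1 lower (median 0.10). Ppp1r3b, the subunit that directs protein phosphatase 1 to glycogen, was at 10.70, 10.65 and 10.54 after insulin glargine and at 9.46, 8.93 and 9.64 after Insulin-Apo (log2 difference 1.29 ± 0.17 SE, adjusted p = 0.000647). Pklr, liver pyruvate kinase, was at 10.94, 10.59 and 10.53 and at 11.88, 11.41 and 11.30 (log2 difference -0.85 ± 0.17 SE, adjusted p = 0.00664). In the gluconeogenesis list 2 of 12 were higher and none lower (median 0.13). They were aminotransferases, Gpt at 11.23, 11.06 and 11.59 and at 10.37, 10.20 and 10.61 (log2 difference 0.90 ± 0.16 SE, adjusted p = 0.00317), and Got1 at 14.51, 14.40 and 14.28 and at 13.94, 13.35 and 13.71 (log2 difference 0.73 ± 0.12 SE, adjusted p = 0.00215). Neither Pck1, the rate-limiting enzyme of gluconeogenesis (difference -0.32, adjusted p = 0.0452), nor Fbp1 (-0.33, adjusted p = 0.168, and -0.12 without insulin glargine replicate 3) was called. The urea cycle and amino acid list shares Got1 and had 3 of 13 members higher and none lower (median 0.26), Got1, Aass of lysine breakdown (log2 difference 0.61 ± 0.091 SE, adjusted p = 0.00113) and Prodh of proline breakdown (log2 difference 0.88 ± 0.17 SE, adjusted p = 0.00513). Arg1, the last enzyme of the urea cycle, was just short of a call (0.36, adjusted p = 0.0106), and without insulin glargine replicate 3 a member of this list was called lower. When 1 array was left out, the call of Pklr was lost without insulin glargine replicates 2 and 3, Insulin-Apo replicates 1 and 2, saline replicate 2, and Albulin replicate 1, with differences of -0.90 to -0.67, the call of Gpt was lost without Insulin-Apo replicate 2, where the difference was 0.80, and the call of Prodh was lost without insulin glargine replicates 2 and 3 or without Insulin-Apo replicates 1 and 2, with differences of 0.68 to 0.91.

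Cyp7a1, the rate-limiting enzyme of bile acid synthesis, which insulin represses, was at 13.18, 13.13 and 13.37 after insulin glargine and at 11.18, 10.12 and 12.88 after Insulin-Apo. The saline arrays were at 13.63, 13.75 and 13.52 and the Albulin arrays at 12.19, 11.21 and 11.09. The groups did not overlap, but the Insulin-Apo arrays spread over more than 2 log2 units, and the gene was not called (difference 1.84 ± 0.50 SE, 95% interval 0.75 to 2.92, adjusted p = 0.0337). It was called without Insulin-Apo replicate 3, with a difference of 2.58, whereas the difference was 1.20 without Insulin-Apo replicate 2. No other member of the bile acid list of 13 was called (median -0.08). In the apolipoprotein list 1 of 15 was lower, Apoa5, an activator of lipoprotein lipase, at 13.06, 12.72 and 13.09 and at 13.51, 13.56 and 13.45 (log2 difference -0.55 ± 0.093 SE, adjusted p = 0.00264). Mouse Apoa1 itself was at 14.77, 14.82 and 14.75 after insulin glargine and at 14.81, 14.75 and 14.78 after Insulin-Apo. The cholesterol exporter Abca1, which loads apolipoprotein A-I with lipid, differed by 0.48 (adjusted p = 0.021) and was not called.

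Core clock genes differed between the 2 groups, whose hours of injection are not given. Of 17 clock genes 5 were higher and 2 lower (median 0.25). The clock is a loop in which BMAL1 (Arntl) and CLOCK bind the E-box CACGTG and induce Per, Cry, Ciart, Nr1d1 and Dbp, whose products (Dbp apart) feed back as repressors, and Nr1d1 represses Arntl. In the 250 bases before the start of each gene, the E-box was found in 2 of the 6 called clock genes with a promoter entry, against 6.02% of all 32851 promoters. The D-box TTANGTAA (2.06% of promoters) and the ROR element (0.177%), written as AA and TAGGTCA with any base between them, were found in none of the 6. Here and for the motifs below, a gene counted if any of its promoter entries held the motif. The percentages are of single promoter entries, so they are not a like measure. The promoter stretches that hold the E-box are shown with each match in capitals, from RefSeq on GRCm38.p6, for Ciart (chr3:95882252-95882359, minus strand, matches from 116 to 44 bases before the start) and for Cry1 (chr10:85185094-85185129, minus strand, 60 bases before the start).
Ciart: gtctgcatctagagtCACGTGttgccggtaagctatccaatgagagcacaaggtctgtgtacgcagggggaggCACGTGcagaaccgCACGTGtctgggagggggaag
Cry1: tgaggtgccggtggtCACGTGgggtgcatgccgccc
These matches describe the letters only.

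The activator gene Arntl was at 10.40, 10.06 and 10.34 after insulin glargine and at 9.39, 8.55 and 8.79 after Insulin-Apo (log2 difference 1.36 ± 0.19 SE, adjusted p = 0.000686). Its repressor Nr1d1, which encodes REV-ERB alpha, was at 9.75, 10.76 and 10.56 and at 12.0001, 12.51 and 12.05 (log2 difference -1.83 ± 0.21 SE, adjusted p = 0.000189). Dbp, an output transcription factor of the clock, was at 8.80, 8.90 and 8.64 and at 9.57, 10.53 and 10.18 (log2 difference -1.31 ± 0.19 SE, adjusted p = 0.00113). Arntl was thus higher and Nr1d1 and Dbp lower after insulin glargine, with the insulin glargine arrays outside the range of the other 9 arrays for all 3 genes. The repressor Cry1, with 1 E-box in its stretch, was at 9.42, 9.35 and 9.23 and at 7.94, 7.72 and 7.97 (log2 difference 1.46 ± 0.090 SE, adjusted p = 3.54e-06), and saline (7.86, 7.92 and 7.83) was like Insulin-Apo. Cry2 was at 10.14, 9.99 and 9.79 and at 9.22, 9.20 and 9.45 (log2 difference 0.68 ± 0.094 SE, adjusted p = 0.00069), and Per2 at 8.87, 8.94 and 9.19 and at 8.38, 8.51 and 8.54 (log2 difference 0.52 ± 0.10 SE, adjusted p = 0.00634). Ciart, a repressor with 3 E-boxes in its stretch, was at 12.01, 11.76 and 11.92 and at 9.80, 7.90 and 10.10 (log2 difference 2.63 ± 0.42 SE, adjusted p = 0.00183). Insulin-Apo replicate 2 was nearly 2 log2 units below the other two for Ciart, and without it the difference was 1.94. A second probe set of Ciart was called too. Saline values of Ciart (11.34, 11.69 and 11.31) and Per2 (8.73, 8.93 and 9.06) were close to those after insulin glargine. Per1 (0.81), Rora (0.52) and Nr1d2 (-0.56) were not called (adjusted p = 0.0201, 0.0171 and 0.0471), and without insulin glargine replicate 3 the difference in Nr1d2 was -0.35. Among single arrays left out, the call of Per2 was lost without insulin glargine replicates 2 and 3, Insulin-Apo replicates 1, 2 and 3, saline replicate 2, and Albulin replicate 1, with differences of 0.43 to 0.56.

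**Figure D4:**
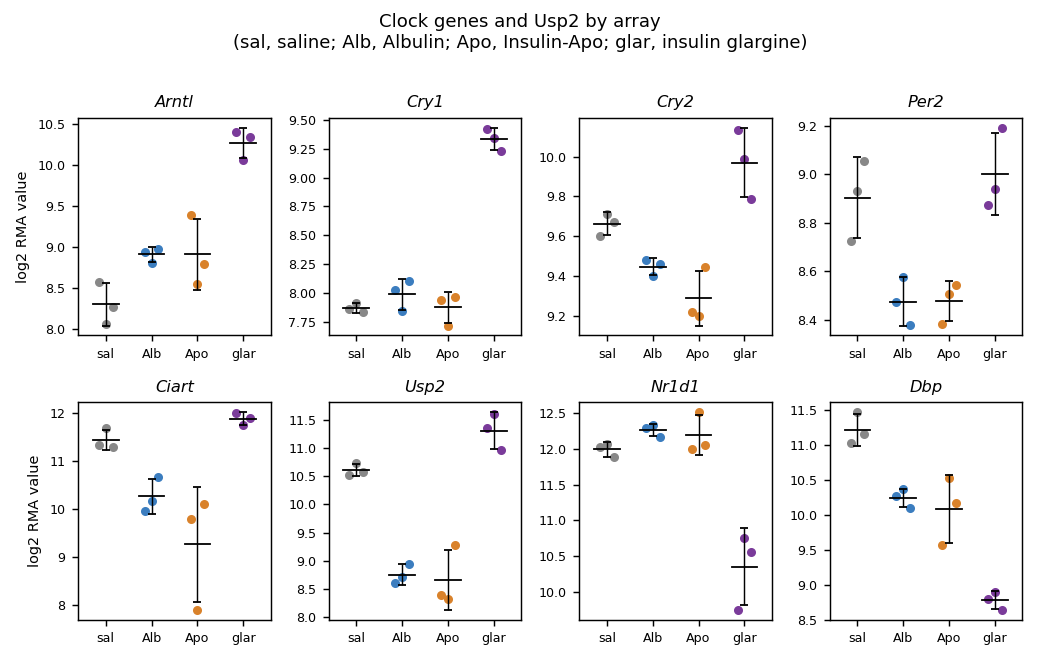
Log2 RMA values of 7 called clock genes and of Usp2 in each array of the 4 groups (points), with the group mean and SD (black, n = 3). Arntl, Cry1 and Cry2 are highest after insulin glargine, Nr1d1 and Dbp are lowest, and for Per2 and Ciart the saline arrays lie near the insulin glargine arrays.

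Glucocorticoid-responsive genes were higher in 2 of 12 members and lower in none (median 0.31, the highest of all lists). They were Cebpd, a transcription factor of the C/EBP family, at 8.94, 9.01 and 9.33 after insulin glargine and at 8.28, 7.74 and 8.04 after Insulin-Apo (log2 difference 1.07 ± 0.14 SE, adjusted p = 0.000473), and Tsc22d3, which encodes GILZ, at 11.26, 10.81 and 10.98 and at 10.03, 9.30 and 10.18 (log2 difference 1.18 ± 0.19 SE, adjusted p = 0.00194). Fkbp5, a cochaperone of the glucocorticoid receptor, was at 11.71, 11.81 and 12.02 and at 10.96, 9.28 and 10.73, not overlapping and just short of a call (difference 1.53, adjusted p = 0.00953), and without Insulin-Apo replicate 2 the difference was 1.003. Saline values of Tsc22d3 (10.997, 10.88 and 11.10) were close to those after insulin glargine, and those of Fkbp5 (10.98, 11.12 and 11.10) lay between the 2 groups. Immediate early genes were lower in 3 of 14 and higher in none (median -0.14). Egr1, a growth factor-induced zinc finger factor, was at 7.90, 7.85 and 8.08 and at 9.52, 10.20 and 9.69 (log2 difference -1.86 ± 0.25 SE, adjusted p = 0.000598), Junb, an AP-1 subunit, at 8.24, 8.53 and 8.59 and at 9.54, 9.77 and 9.47 (log2 difference -1.14 ± 0.13 SE, adjusted p = 0.000155), and Klf10, a TGF beta-induced factor, was lower (log2 difference -0.74 ± 0.11 SE, adjusted p = 0.00109). Without insulin glargine replicate 2, 2 members of this list were called higher. Of the growth hormone and IGF list of 11, Igfbp3, the main carrier of IGF-1 in plasma, was higher (log2 difference 1.01 ± 0.19 SE, adjusted p = 0.00483) and none lower. Socs2, a feedback inhibitor of the growth hormone receptor, was not called (-1.06, adjusted p = 0.0262). When arrays were left out in turn, the call of Igfbp3 was lost without insulin glargine replicates 2 and 3, with differences of 0.95 to 0.97.

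The largest differences of the whole comparison were in the acute phase genes. Of 25 members 12 were lower and none higher after insulin glargine, and the median was -0.44. Saa1 and Saa2, serum amyloid A proteins of high-density lipoprotein, were lower by an estimated 36.9-fold and 31.7-fold. The insulin glargine values of Saa1 lay below the array medians and may be at background, which can make its difference look smaller. The Insulin-Apo values of Saa1 were also spread, so its fold is an estimate and not a bound. Saa1 was at 5.94, 6.67 and 6.67 after insulin glargine, 11.82, 12.42 and 10.65 after Insulin-Apo, 5.98, 6.49 and 6.43 after saline and 12.18, 12.37 and 11.003 after Albulin (log2 difference -5.21 ± 0.42 SE, adjusted p = 2.13e-05). Saa2 was at 8.30, 8.60 and 8.39 after insulin glargine, 13.51, 13.94 and 12.80 after Insulin-Apo, 8.16, 8.49 and 8.73 after saline and 13.72, 13.90 and 13.04 after Albulin (log2 difference -4.99 ± 0.27 SE, adjusted p = 2.27e-06). The arrays thus fell into a low pair of groups, insulin glargine and saline, and a high pair, Insulin-Apo and Albulin. The proteins of the high pair also came from the same supplier, which made them in E. coli, and the part of this was not tested. The methods do not give the host in which insulin glargine was made, so the host may not differ between the pairs. Saa1 and Saa2 are near-identical paralogues whose probes may share signal, so their separate sizes are uncertain. Orm2, an orosomucoid, was at 11.44, 11.31 and 11.40 after insulin glargine and at 13.47, 14.03 and 13.16 after Insulin-Apo (log2 difference -2.17 ± 0.18 SE, adjusted p = 2.13e-05). Apcs, serum amyloid P, was at 11.94, 12.27 and 11.71 and at 13.40, 13.47 and 13.36 (log2 difference -1.44 ± 0.16 SE, adjusted p = 0.000176), and Saa4 at 11.82, 11.84 and 11.07 and at 13.14, 13.35 and 13.20 (log2 difference -1.65 ± 0.17 SE, adjusted p = 0.000119). For Saa4 and Il1rn, the interleukin-1 receptor antagonist (log2 difference -0.93 ± 0.11 SE, adjusted p = 0.000232), the insulin glargine arrays lay below the saline arrays as well.

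Smaller differences were found in Serpina3n (log2 difference -0.54 ± 0.083 SE, adjusted p = 0.0013), in the fibrinogen chains Fga (log2 difference -0.38 ± 0.064 SE, adjusted p = 0.00264) and Fgg (log2 difference -0.31 ± 0.057 SE, adjusted p = 0.00394), in Orm1 (log2 difference -0.44 ± 0.081 SE, adjusted p = 0.00437) and in Itih4, an inter-alpha-trypsin inhibitor chain (log2 difference -0.40 ± 0.076 SE, adjusted p = 0.00483). Socs3, the inhibitor induced by interleukin-6 through STAT3, was at 8.90, 8.85 and 8.89 after insulin glargine, 10.38, 11.47 and 10.12 after Insulin-Apo, 8.80, 8.92 and 8.59 after saline and 11.48, 11.30 and 10.67 after Albulin (log2 difference -1.78 ± 0.28 SE, adjusted p = 0.00174). Without Insulin-Apo replicate 2, the highest array of its group, the difference in Socs3 was -1.37. A second, dimmer probe set of Socs3 was not called, at -0.31, and the mean of both gave -1.05, while that of Fga was called at -1.39 and the mean of both gave -0.88. The saline mean was nearer to insulin glargine in 10 of the 12 called acute phase genes, against 298 of all 1259 called probe sets. The Albulin mean was nearer to Insulin-Apo in all 12, against 1128 of the 1259, so this second count is not particular to the acute phase genes. The motif TTCNNNGAA, which STAT3 binds, occurred in the 250 bases before the start of 4 of the 11 called acute phase genes with a promoter entry, against 7.02% of all promoters, and the NF-kB motif, written as GGGA and TTTCC with any base between them, in none of the 11 (0.356% of all promoters). The 4 stretches are shown with the match in capitals, for Socs3 (chr11:117969497-117969535, minus strand), Fga (chr3:83025904-83025942, plus strand), Itih4 (chr14:30886410-30886448, plus strand) and Apcs (chr1:172895275-172895304, minus strand), from RefSeq on GRCm38.p6.
Socs3: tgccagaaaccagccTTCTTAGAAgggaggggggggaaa
Fga: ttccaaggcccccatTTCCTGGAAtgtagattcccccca
Itih4: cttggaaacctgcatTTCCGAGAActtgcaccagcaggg
Apcs: atcttcTTCTAGGAAagcacagggtcatga
Their differences ranged from -0.38 for Fga to -1.78 for Socs3. With each array left out once, the call of Fgg was lost without insulin glargine replicate 1 or without Insulin-Apo replicates 1 and 2, where the difference was -0.30, the call of Orm1 was lost without insulin glargine replicate 3 or without Insulin-Apo replicates 1 and 2, with differences of -0.43 to -0.37, and the call of Itih4 was lost without insulin glargine replicates 1, 2 and 3 or without Insulin-Apo replicates 1 and 2, with differences of -0.42 to -0.33.

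**Figure D5:**
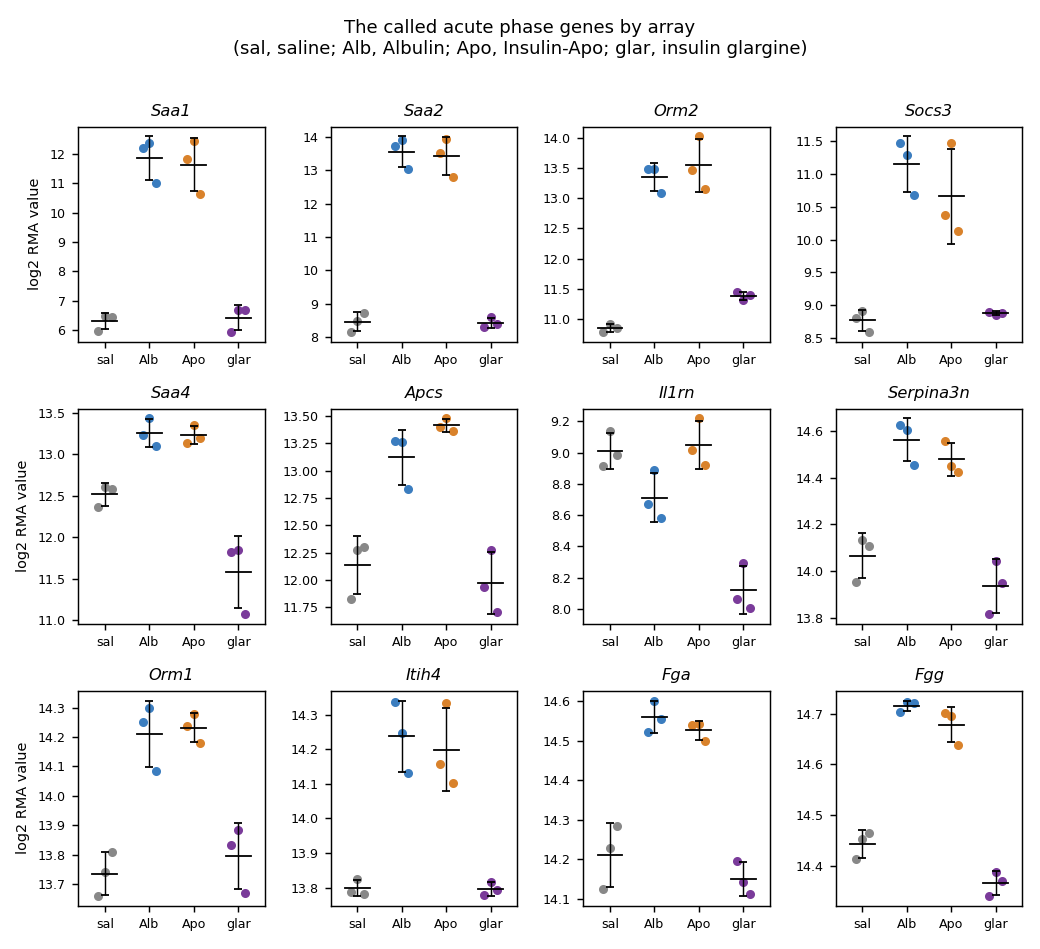
Log2 RMA values of the 12 called acute phase genes in each array of the 4 groups (points), with the group mean and SD (black, n = 3). Insulin-Apo and Albulin arrays are high and insulin glargine and saline arrays low for Saa1, Saa2, Orm2 and Socs3, whereas for Il1rn and Saa4 the insulin glargine arrays are the lowest of the 4 groups.

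Chemokines and cytokines were lower in 3 of 18 members and higher in 1 (median -0.43). Cxcl13, the chemokine that attracts B cells, was at 10.33, 10.79 and 9.09 after insulin glargine and at 12.96, 12.98 and 12.06 after Insulin-Apo (log2 difference -2.60 ± 0.35 SE, adjusted p = 0.000633). Ccl3, a chemokine of macrophages, was at 7.17, 7.502 and 7.09 and at 8.74, 9.94 and 8.38 (log2 difference -1.77 ± 0.33 SE, adjusted p = 0.00485), and Tnf at 6.60, 6.57 and 6.64 and at 7.22, 7.62 and 7.08 (log2 difference -0.71 ± 0.12 SE, adjusted p = 0.00219). The vascular adhesion molecule Vcam1 was higher, at 10.48, 10.74 and 10.58 and at 10.25, 9.67 and 9.81 (log2 difference 0.69 ± 0.13 SE, adjusted p = 0.00408). Il10, an anti-inflammatory cytokine, was at 6.36, 6.84 and 5.81 and at 5.11, 5.34 and 5.66 and was just short of a call (0.97, adjusted p = 0.00989). The values of Tnf and Il10 in both groups lay below the array medians and may be near background. Il1b (-1.26), Cxcl1 (-1.13) and Cxcl9 (-1.73) were not called (adjusted p = 0.013, 0.0144 and 0.0133), and the difference in Cxcl9 was -1.15 without Insulin-Apo replicate 2. In the interferon list 1 of 14 was lower, Irf1, an interferon-induced transcription factor (log2 difference -1.21 ± 0.17 SE, adjusted p = 0.00087). A second, dimmer probe set of Irf1 was not called, at -0.06, and the mean of both gave -0.63. With single arrays left out, the call of Ccl3 was lost without insulin glargine replicates 1 and 3, with differences of -1.72 to -1.69, and the call of Vcam1 was lost without insulin glargine replicate 2 or without Insulin-Apo replicates 2 and 3, with differences of 0.57 to 0.64. The lower count of the chemokine list was 5 without Insulin-Apo replicate 1, its higher count 2 without insulin glargine replicate 3, and the lower count of the interferon list 3 without Insulin-Apo replicate 3 and 2 without insulin glargine replicate 3, with 1 member higher without Insulin-Apo replicate 1.

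Some markers of neutrophils and macrophages were lower as well, whereas Cd14 and Cytip of myeloid cells and leukocytes, described above, were higher. Of 10 neutrophil markers 4 were lower (median -0.57), and the mean of the 10 was 6.87 to 7.02 in the insulin glargine arrays, 7.35 to 7.52 in the Insulin-Apo arrays and 7.01 to 7.20 in the saline arrays. They were Csf3r (log2 difference -0.66 ± 0.090 SE, adjusted p = 0.000633), S100a8 (log2 difference -0.85 ± 0.17 SE, adjusted p = 0.00789), Cxcr2 (log2 difference -0.87 ± 0.18 SE, adjusted p = 0.00856) and S100a9 (log2 difference -0.59 ± 0.12 SE, adjusted p = 0.00852). The granule genes Elane (-0.04) and Mpo (-0.10) and the neutrophil surface marker Ly6g (-0.55, adjusted p = 0.0239) were not called. Of 11 Kupffer cell and macrophage markers 2 were lower (median -0.30), and their mean was 9.71 to 10.36 in the insulin glargine arrays and 10.28 to 10.71 in the Insulin-Apo arrays, which overlapped. They were the scavenger receptors Marco, at 7.97, 8.05 and 7.85 and at 9.17, 9.55 and 8.70 (log2 difference -1.18 ± 0.18 SE, adjusted p = 0.00136), and Cd68 (log2 difference -0.74 ± 0.13 SE, adjusted p = 0.00356). Clec4f, a defining Kupffer cell gene, was not called (0.17, 95% interval -0.26 to 0.61, with the sign turned to -0.13 without Insulin-Apo replicate 2), nor was Adgre1, a macrophage surface marker (-1.07, adjusted p = 0.0121). In the other lists of non-hepatocyte cells, 1 of 9 sinusoidal endothelial markers (Kdr, -0.53) and 1 of 9 T and NK cell markers (Nkg7, -0.51) were lower, and 1 of 5 cholangiocyte markers (Krt19, 0.52) was higher. The part of these cells in the inflammatory differences was not tested. With arrays left out one at a time, the acute phase count was 9 to 13, whereas the neutrophil count was 1 to 3 and never 4. It was 1 or 2 for 10 of the 12 arrays, namely every one but insulin glargine replicate 3 and Insulin-Apo replicate 3. The call of S100a8 was lost in 10 of these 12 fits (differences of -0.92 to -0.63). Those of S100a9 (-0.59 to -0.52) and Cxcr2 (-0.95 to -0.73) were lost in 9 each, and Csf3r kept its call. Further, the call of Cd68 was lost without Insulin-Apo replicates 1 and 2, with differences of -0.74 to -0.68, the call of Kdr was lost without insulin glargine replicate 2 or without Insulin-Apo replicates 1 and 3, with differences of -0.55 to -0.46, the call of Nkg7 was lost without insulin glargine replicates 2 and 3 or without Insulin-Apo replicates 1, 2 and 3, with differences of -0.54 to -0.46, and the call of Krt19 was lost without insulin glargine replicates 1 and 3, Insulin-Apo replicates 1 and 3, saline replicates 1, 2 and 3, and Albulin replicates 1 and 3, with differences of 0.42 to 0.52.

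The unfolded protein response, by which cells raise chaperones when unfolded protein gathers in the endoplasmic reticulum, was lower in 3 of 20 members and higher in none (median -0.41). Derl3, a part of the export of misfolded protein for degradation, was at 8.41, 8.45 and 8.13 after insulin glargine and at 10.04, 9.34 and 9.87 after Insulin-Apo (log2 difference -1.42 ± 0.19 SE, adjusted p = 0.000641). Sdf2l1, a cofactor of the chaperone BiP, was at 10.89, 11.19 and 10.11 and at 11.82, 12.21 and 11.93 (log2 difference -1.26 ± 0.22 SE, adjusted p = 0.00287), and Dnajb9, another cochaperone of BiP, at 12.19, 12.36 and 11.16 and at 13.07, 13.27 and 13.04 (log2 difference -1.22 ± 0.24 SE, adjusted p = 0.00649). By group means, Insulin-Apo was the highest of the 4 groups for all 3 genes. Among all 20, 18 had negative differences, among them Manf (-0.53), Pdia4 (-0.76), Pdia6 (-0.54) and Creld2 (-0.87), none of them called (adjusted p = 0.0102, 0.0211, 0.0188 and 0.0398). Without insulin glargine replicate 3 the differences in Pdia4 and Creld2 were -0.50 and -0.49. The ER stress element, which ATF6 and NF-Y bind and which is written as CCAAT and CCACG with 9 bases between them, was found on either strand in 1 of the 3 called genes, Derl3, against 0.113% of all promoters. It is shown in capitals, on the opposite strand, 156 bases before the start (chr10:75893227-75893275, plus strand, from RefSeq on GRCm38.p6).
Derl3: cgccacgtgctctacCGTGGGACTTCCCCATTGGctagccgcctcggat
The count of this list was 8 without insulin glargine replicate 2 and 1 without Insulin-Apo replicate 2. When 1 array was left out, the call of Sdf2l1 was lost without Insulin-Apo replicate 2, where the difference was -1.14, and the call of Dnajb9 was lost without Insulin-Apo replicates 1, 2 and 3, saline replicate 2, and Albulin replicates 1 and 2, with differences of -1.27 to -1.15.

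In the integrated stress response list 2 of 14 were lower and 1 higher (median -0.08). Chac1, which degrades glutathione, was at 8.52, 8.72 and 8.55 and at 9.79, 9.77 and 9.75 (log2 difference -1.17 ± 0.19 SE, adjusted p = 0.00196), and Ppp1r15a, the phosphatase subunit that ends the response, was lower (log2 difference -0.49 ± 0.094 SE, adjusted p = 0.00558). Ddit4, an inhibitor of mTORC1 that is also induced by glucocorticoids, was at 11.09, 10.51 and 10.52 and at 9.43, 8.42 and 8.95 (log2 difference 1.78 ± 0.28 SE, adjusted p = 0.00178), and at 10.51, 9.88 and 9.79 after saline. In the autophagy and lysosome list 1 of 15 was lower, Atg14, a subunit of the autophagy phosphoinositide 3-kinase complex, at 8.66, 9.01 and 8.54 and at 9.46, 9.47 and 9.53 (log2 difference -0.75 ± 0.12 SE, adjusted p = 0.00148). Among single arrays left out, the call of Ppp1r15a was lost without insulin glargine replicates 2 and 3 or without Insulin-Apo replicates 1 and 3, with differences of -0.48 to -0.41.

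Several lists had no called member. None of 14 fatty acid oxidation and ketone genes was called (median -0.07), and the smallest p was that of Bdh1, a ketone body dehydrogenase, with a 95% interval of -1.11 to -0.09 and a difference of -0.60, or -0.25 without insulin glargine replicate 2. The same held for 7 NADPH-supplying genes (median 0.05), 11 heat shock genes (median 0.00), 31 proteasome subunits (median -0.08, with Psma1 at -0.57 to -0.19) and 29 respiratory chain subunits (median 0.05, with Ndufs1 at 0.13 to 0.42). Of 18 cytochrome P450 genes of drug metabolism none was called (median 0.01), although Cyp2b10, the best-known target of the receptor CAR, was at 12.73, 13.49 and 12.20 after insulin glargine and at 11.18, 9.91 and 11.89 after Insulin-Apo (difference 1.81, 95% interval 0.95 to 2.68, adjusted p = 0.0113). Of 12 phase II conjugation genes none was called (median 0.10, with Sult1a1 at 0.08 to 0.51). The female-biased and male-biased liver lists had no call among 8 and 10 members, or 1 higher among the 8 without insulin glargine replicate 3. These intervals show how large a difference the 3 arrays of each group still allow, and the missing calls do not show that the 2 insulins act alike. Without insulin glargine replicate 2 or 3, 2 and 1 proteasome subunits were called lower, and without insulin glargine replicate 3 or Insulin-Apo replicate 3, 1 and 2 cytochrome P450 genes were called higher.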

How the data were processed

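Liver RNA was measured on Affymetrix Mouse Gene 1.0 ST arrays (4 groups of 3). The deposited values are on the log2 scale, and the authors made them by Robust Multichip Average (RMA) background correction and normalization. The RMA version is not given in the sources used here, and normalization shared by arrays can hide a shift of all genes. Groups came from the sample labels. Symbols came from the platform annotation and were compared with RefSeq, which changed none. Of the probe sets, 21640 had 1 symbol, 1321 several and 5252 none, 21553 matched RefSeq, and no gene was named from several symbols.

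Differences were fitted with limma 3.58.1 in R 4.3.3 with lmFit, contrasts.fit and eBayes (prior proportion 0.01), after 2186 dim probe sets were left out, and tested on simulated data. The number of arrays limits the precision. Named genes were the 15 with the largest called difference in each direction that had 1 symbol and no overlap of the arrays (4 higher and 23 lower predicted genes were left out), in each list the called members and up to 4 members with the smallest p, the genes the study measured by RT-PCR (Fasn, Acly, Acaca and Cyp7a1), and checks. Other genes just short of a call, or defining markers, were named after their values were seen. The members and the lists were chosen with earlier results of these data known. Alternatives were the filter, scaling, the replicate block, prior trend, array weights, fits of fewer arrays, thresholds of adjusted p, probe set choice and each array left out in turn. Promoter stretches show up to 15 bases on each side of the motifs. Figures used matplotlib 3.10.9 (Python 3.11.15).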

Additional observations from a re-analysis of the deposited data

How the results depend on the processing

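The count of 1259 called probe sets (510 higher, 749 lower) stayed within 1.5 times its value under 11 alternatives of filter, scaling, model, probe set choice and calling threshold, from 1028 to 1394. Calling by an adjusted p under 0.05 gave 2823 (1179 higher, 1644 lower), and only the 6 arrays of the 2 groups gave 645 (249 higher, 396 lower), of which 616 were among the main calls. With the 6 arrays but insulin glargine replicate 3, an alternative chosen after the data were seen, the count was 772 (386 higher and 386 lower). Of these, 589 were among the main calls. Of the 89 called genes named above, 35 lost their call in this fit. Those that had kept it with all 6 arrays were Depp1, Fdft1, Foxo1, Socs3, Irf1, Arntl, Dbp, Klf10, Marco, Cxcr2 and Nkg7. Leaving out each array in turn gave 815 to 1264 calls (320 to 588 higher, 495 to 759 lower). With the replicate number as a block 1120 were called (455 higher, 665 lower), and 1044 of them were main calls. Deviations of same-numbered insulin glargine and Insulin-Apo arrays from their group means correlated at 0.149, -0.092 and 0.04. With 3 arrays in each group, these values do not settle whether the numbers pair the arrays. The share of higher calls was 40.5%, and 35.5% to 50% under all alternatives. Centring the arrays moved the median over all probe sets from 0.0212 to 0.0101. Of 93 genes followed through 26 alternatives, 48 kept their call status in every one, and of 2418 pairs of gene and alternative 215 lost a call and 10 gained one. The sign turned in 4, all of Acaca, whose difference of 0.06 became -0.0217 with array weights, -0.0029 in the 6 arrays but insulin glargine replicate 3, and -0.0048 to 0.1851 with each array left out. Where a call was lost, the cause was not tested.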

Other observations

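Other gene groups had few calls. Of 23 ribosome biogenesis genes 1 was higher, Rrp12, a factor of ribosome export (log2 difference 0.52 ± 0.093 SE, adjusted p = 0.00351), and the median was 0.14. Ncl, the abundant nucleolar protein nucleolin, was not called (0.41, adjusted p = 0.0137). With arrays left out in turn, the call of Rrp12 was lost without Insulin-Apo replicates 2 and 3, with differences of 0.51 to 0.52, and 2 members were called without insulin glargine replicate 1. The markers of stellate cells (median 0.14), B cells (median -0.24), adipocytes (median 0.02), pancreatic acinar cells (median 0.00) and dividing cells (median 0.09) had no called member. With single arrays left out, 1 B cell marker was called lower without Albulin replicate 1, and 1 stellate cell marker without insulin glargine replicate 2 or 3. Lrat, which stores vitamin A in stellate cells, was at 9.69, 9.98 and 9.05 after insulin glargine and at 10.44, 10.45 and 10.36 after Insulin-Apo and was just short of a call (-0.84, adjusted p = 0.0102). Of the called probe sets, 91 had no symbol and 41 had several, and these were not named.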
